A study of Mus musculus with 47 samples.

Results

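The compound 4b, an inhibitor of histone deacetylases, was compared with control treatment in the cerebellum of transgenic Huntington's disease mice of the R6/2(300Q) line. The comparison was defined by the sample labels and took 8 of the 47 bead arrays in the series, 4 from 4b-treated and 4 from control transgenic mice. All 8 arrays measured total RNA, extracted with Trizol, from cerebellum of mice on a CBA x C57BL/6 background. The 4b mice drank a 4b solution of 1 mg/ml in place of water for 67 days from 4 months of age. The same starting age of 4 months holds for the control arrays and the wild-type cerebellum arrays. The labels do not describe the control treatment or say whether the replicates of a group were separate animals, and the p-values below therefore reflect variation among the arrays, which may be technical. The 7 wild-type cerebellum arrays of the same strain background, 4 with 4b and 3 with control treatment, helped to estimate the spread within groups and served as a second comparison.

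R6/2 mice carry a fragment of the human huntingtin gene with an expanded CAG repeat under the human huntingtin promoter and develop a progressive movement disorder. Histone deacetylases remove acetyl groups from histone tails, and their inhibition raises histone acetylation. The compound 4b is known to act mainly on class I deacetylases such as HDAC1 and HDAC3. The cerebellar cortex is built of Purkinje cells, granule neurons, inhibitory interneurons and glia. The choroid plexus is a separate epithelium in the brain ventricles that secretes cerebrospinal fluid; the plexus of the fourth ventricle lies against the underside of the cerebellum and can be taken with it or left behind when the tissue is removed.

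Levels are given as background-corrected, quantile-normalized log2 fluorescence of 1 probe per gene, and differences as log2 values of 4b minus control. The labelled region was checked by setting the same marker lists in cerebellum against the other regions of the series. The mean of 18 Purkinje cell genes was 10.73 to 11.32 on the 15 cerebellum arrays, against 8.89 to 9.19 on 16 cortex arrays and 8.79 to 9.45 on 16 striatum arrays. The mean of 24 granule neuron genes was 10.48 to 11.12 in cerebellum, against 8.45 to 8.87 in cortex and 8.20 to 9.06 in striatum. Forebrain neuron genes had the opposite order, with 7.70 to 8.85 in cerebellum, against 9.60 to 10.55 in cortex and 11.47 to 12.44 in striatum. Y-linked probes on the 8 female cerebellum arrays, a measure of the level without a target, averaged 6.29 ± 0.20 (SD) and reached 6.72, so levels below about that value are at background. All 15 cerebellum arrays matched their labelled sex. Among the transgenic arrays, 1 stood apart. Control array 1 correlated with the other transgenic control arrays at 0.9642 to 0.9745 (Pearson's r over genes, which are not independent replicates), and its deviations from the group mean had an SD of 0.354, against 0.155 to 0.188 on the 4b arrays and 0.207 to 0.245 on the other controls. The groups also differed in sex, with 1 male and 3 female 4b arrays against 2 male and 2 female control arrays, and shared only 1 BeadChip, the slide that carries several arrays. Median fluorescence before normalization was 130.7 to 146.1 on the 4b arrays and 148.0 to 211.8 on the control arrays. Among the wild-type arrays, deviations from the group mean had an SD of 0.264 to 0.275 on the controls, against 0.186 to 0.214 with 4b. Wild-type control array 1 had a mean of 9.43 for 9 brainstem and spinal patterning genes, against 6.82 to 7.46 on the other cerebellum arrays. The part of sex, BeadChip, brightness and these wild-type values in the differences below was not tested beyond the values given.

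No gene passed the test. Of 12049 genes tested, 0 (0%) had an adjusted p under 0.05 in limma, and the smallest adjusted p was 0.13. Without control array 1, 35 genes were called, 2 higher (Ccdc3 and Apoc1) and 33 lower (0.274%). At an unadjusted p under 0.05, 356 genes (2.95%) were higher and 204 (1.69%) lower with 4b. Scaling each array to a common median in place of quantile normalization turned this split to 184 higher and 301 lower. If no gene differed, 602.45 genes would be expected under that threshold, against 560 in the main fit. All 4 of the 4b arrays lay above all 4 control arrays for 279 genes (2.32%) and below them for 164 genes (1.36%). Over all genes tested the median difference was 0.002, and the 5th and the 95th percentile of the differences were -0.25 and 0.26. Against this narrow background, 42 genes were more than 2-fold higher in their means with 4b and 10 more than 2-fold lower.

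Genes of the choroid plexus were among the largest differences. The list held 30 genes; 26 were on the arrays, 24 passed the filter on dim probes, 2 (Slc13a4 and Slc4a5) were too dim to be tested, and Kcnj13, Prlr, Enpp2 and Tmem27 were not analysed here. All 24 had higher means with 4b, with a median difference of 1.53 against 0.00 over all genes. None passed the adjusted test, 20 of 24 had an unadjusted p under 0.05, and for 21 of 24 every 4b array lay above every control array. Of the 42 genes more than 2-fold higher, 14 were in this list. Without control array 1 the count was also 20 of 24, while the share of all genes higher at that threshold was larger, at 919 genes (7.63%), with 909 (7.54%) lower. The list median was then 1.55.

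The mean level of the 24 genes was 9.19, 9.59, 9.97 and 9.30 on the 4b arrays 1 to 4, against 7.90, 7.62, 7.89 and 7.61 on the control arrays 1 to 4. The groups did not overlap, and the lowest 4b array was well above the highest control. In wild-type cerebellum the same mean was 8.92, 7.70, 7.65 and 9.96 with 4b, against 9.77, 8.43 and 7.74 with control treatment. There, high and low arrays occurred under both treatments, and the median difference of the list was -0.06. Within transgenic mice every 4b piece therefore had a high choroid plexus level and every control piece a low one, and treatment and choroid plexus level cannot be told apart on these arrays. In bulk tissue, a smaller amount of choroid plexus and less of its RNA per cell cannot be told apart either.

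**Figure D1:**
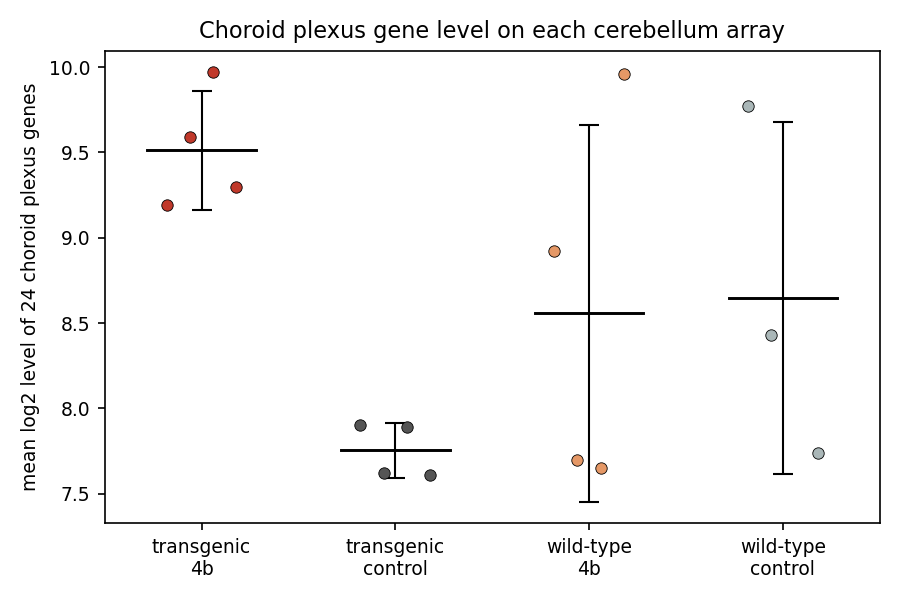
Mean log2 level of the 24 tested choroid plexus genes (y axis) on each cerebellum array, by group; points are arrays, lines means and bars SD over 4, 4, 4 and 3 arrays. The 4b transgenic arrays sit between 9.19 and 9.97 and the transgenic controls between 7.61 and 7.90, while wild-type arrays of both treatments range from 7.65 to 9.96.

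Secreted and transport proteins of the epithelium led the list. Ttr, which encodes transthyretin, the plexus's main secreted carrier of thyroid hormone, had log2 levels of 14.31, 14.32, 14.45 and 14.51 on the 4b arrays, against 12.43, 10.72, 13.55 and 10.04 on the control arrays. The 4b arrays lay close together near the top of the scale, where the highest level of any gene on the 8 arrays was 15.05, and the control arrays spread widely below them. The difference was 2.71 (95% interval -0.01 to 5.43, unadjusted p = 0.051, adjusted p = 0.99 in limma). Kl, which encodes klotho, a membrane protein of the plexus and a co-receptor for FGF23, had levels of 10.09, 10.60, 11.26 and 10.25 with 4b, against 7.22, 6.83, 7.41 and 6.87 with control treatment. No control array came close to a 4b array. The difference of 3.47 ± 0.85 (SE), an 11.1-fold higher mean, had an adjusted p of 0.57 in limma. Sostdc1, a secreted antagonist of BMP and WNT signalling, had levels of 9.61, 10.98, 11.34 and 10.54 with 4b, against 7.12, 6.79, 7.65 and 6.93 with control treatment. Its groups were again apart, with a difference of 3.49 ± 0.90 (adjusted p = 0.57 in limma).

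Ion and water transporters followed the same order. Car12, a membrane carbonic anhydrase, had levels of 10.06, 10.73, 11.04 and 10.23 on the 4b arrays, against 7.34, 6.86, 7.26 and 6.59 on the control arrays, an 11.3-fold higher mean. Clic6, a chloride intracellular channel family member, had levels of 11.55, 11.90, 12.42 and 11.40 with 4b, against 9.37, 8.69, 9.01 and 8.54 with control treatment. It had the smallest p of the list, with a difference of 2.91 ± 0.61 (unadjusted p = 0.00023, adjusted p = 0.56 in limma). Aqp1, the water channel of the apical membrane, had levels of 8.85, 9.67, 9.91 and 9.03 with 4b, against 6.82, 6.54, 6.70 and 6.39 with control treatment. Both of its probes were higher with 4b, by 2.75 and, for the dimmer one, 1.05. Folr1, the folate receptor through which folate enters the cerebrospinal fluid, had levels of 9.05, 9.49, 10.09 and 8.94 with 4b, against 6.50, 6.52, 6.65 and 6.26 with control treatment. The Folr1 control levels lie at background, as do some of Aqp1 and Car12, which limits the folds from below. Cldn2, the claudin that makes the plexus's tight junctions leaky to ions, differed by 2.11 ± 0.57 with no overlap between groups.

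**Figure D2:**
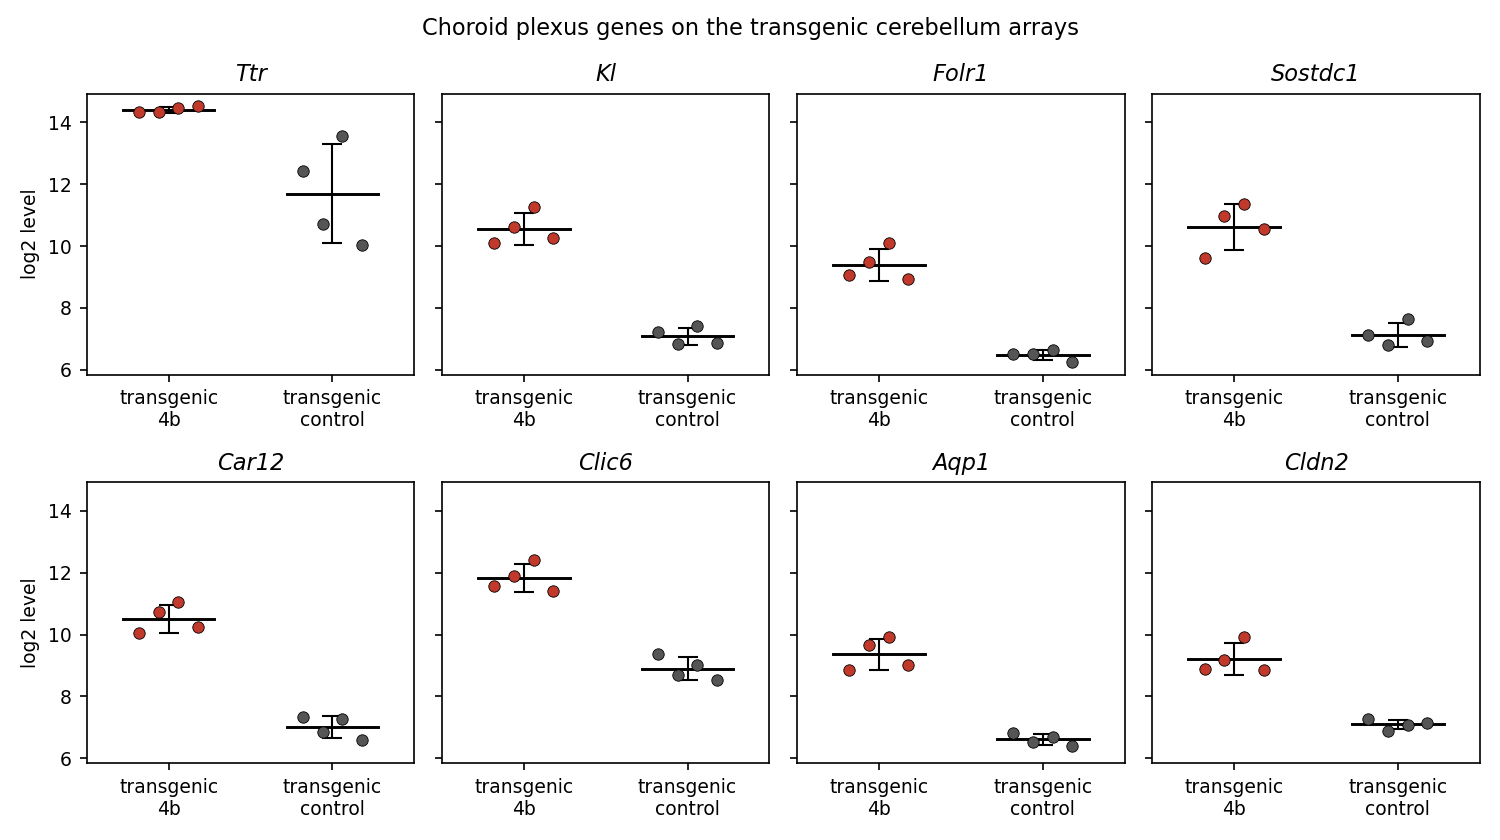
Log2 level (y axis) of 8 choroid plexus genes on the transgenic cerebellum arrays, 4b left and control right; points are arrays, lines means and bars SD over 4 arrays. For each of the 8 genes every 4b array lies above every control array, and Ttr has the widest spread among controls (SD 1.60).

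The remaining members covered a wide range. Wfdc2, Calml4 and Ecrg4, the last a secreted peptide precursor, were higher by 2.61, 2.47 and 2.33. Lbp, which binds bacterial lipopolysaccharide, was higher by 1.83, Msx1, a homeobox factor, by 1.24 and Col8a1, a short-chain collagen, by 1.18. Slc16a8 (a lactate transporter), Tmem72, F5 (coagulation factor V), Rdh5 (a retinol dehydrogenase), Ace (angiotensin-converting enzyme), Trpv4 (an osmosensitive cation channel) and Cab39l differed by 0.95, 0.94, 0.81, 0.81, 0.75, 0.73 and 0.62, each with an unadjusted p under 0.05. The 4 other members were Ttr, described above, Otx2, a homeobox factor also present in cerebellar granule cell precursors, at 0.51, Steap1 at 0.30 and Kcne2 at 0.20. Their unadjusted p-values in limma were 0.053 for Otx2, 0.072 for Steap1 and 0.24 for Kcne2. Steap1 and Kcne2 were dim on the 8 transgenic arrays, between 6.59 and 7.31. The Tmem72 control levels, 6.33 to 6.52, lay at background, as did some of Lbp, Slc16a8, F5 and Trpv4. This limits their differences from below. On the shared BeadChip, which held 4b array 1 and control array 4, 23 of the 24 genes were higher with 4b and Kcne2 was not, and the list means were 9.19 against 7.61.

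**Figure D3:**
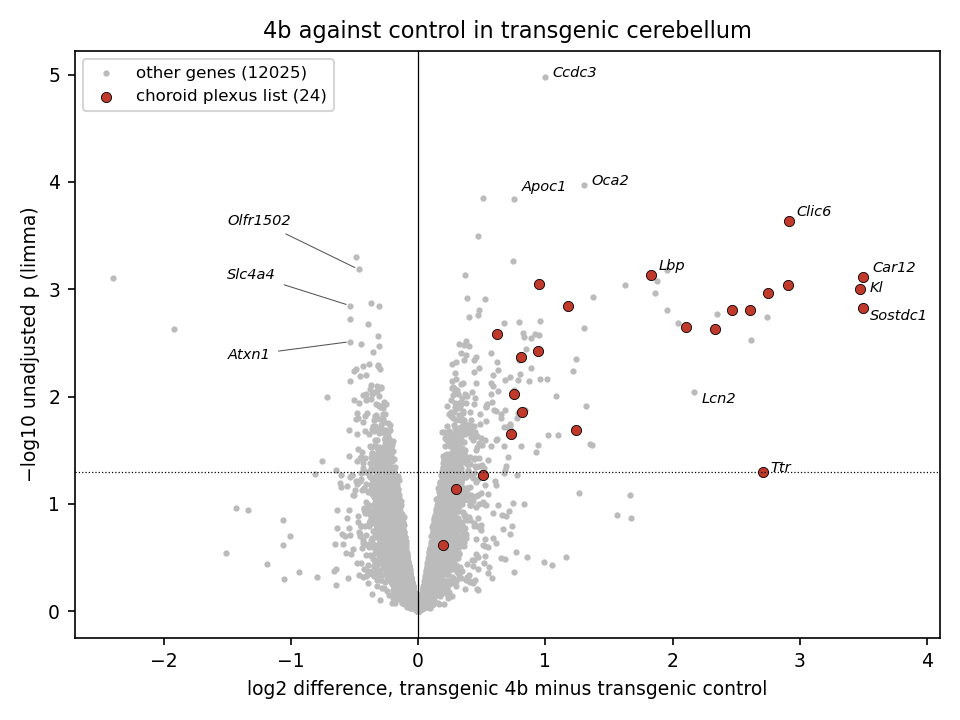
Log2 difference, 4b minus control (x axis), against the unadjusted limma p as -log10 (y axis) for 12049 genes in transgenic cerebellum, with the 24 choroid plexus genes in red and a dotted line at the unadjusted threshold of 0.05. Choroid plexus genes fill the far right, with Car12, Kl and Sostdc1 at 3.50, 3.47 and 3.49, and Ccdc3 is the highest point, at a difference of 1.00.

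Wild-type arrays, which took no part in the difference, were used to ask which other genes follow choroid plexus level. Pearson's r of each gene with the mean choroid plexus level was taken over the 7 wild-type cerebellum arrays, as a description, since these arrays share tissue composition, sex and BeadChip differences. Wild-type control array 1, with a choroid plexus level of 9.77, also had the high brainstem and spinal level given above. The choroid plexus list genes themselves, 22 of 24 with an r above 0.8, were set aside. Of the 12025 other genes, 279 (2.32%) had an r above 0.8. Among the 258 other genes with 4b arrays all above control arrays in transgenic mice the count was 57 (22.1%), and among the 164 with 4b arrays all below it was 0. Of the 42 genes more than 2-fold higher with 4b, 28 had an r above 0.8, against 301 (2.5%) of all genes tested. Both counts include choroid plexus list genes, which make up the mean they are set against. Of the 28, 13 were named genes outside the list. Rbm47, an RNA-binding protein, differed by 1.95 ± 0.46 and had an r of 0.97 on its brightest probe; its 4 dimmer probes differed by 0.02 to 0.41. Prr32 differed by 1.88 ± 0.45 with an r of 0.97. Oca2, which encodes a melanosomal transport protein, had levels of 7.49, 7.64, 8.19 and 7.25 with 4b, against 6.54, 6.22, 6.35 and 6.26 with control treatment. Its difference was 1.30 ± 0.25 (adjusted p = 0.44 in limma), with an r of 0.88. The Oca2 control levels lay at background, as did some of Prr32, which limits both differences from below.

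When the 8 transgenic arrays were fitted alone, so that the wide wild-type spread in choroid plexus level no longer entered the error, 35 genes (0.29%) were called higher and 3 (0.0249%) lower at an adjusted p under 0.05 in limma. Of these 38 genes, 15 were in the choroid plexus list. In wild type 30 of the 38 had an r above 0.8, list genes included, against 2.5% of all genes tested. Of the named genes among the 38 outside the list, only Ccdc3, Tuba1c and Twnk had an r of 0.8 or less. Tuba1c and Twnk were named after their values were seen. When the choroid plexus level of each array was added to the fit of all 15 cerebellum arrays, 0 genes were called and 374 had an unadjusted p under 0.05. That covariate separates the transgenic groups completely, so a 4b difference under it rests on the slope seen within groups.

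Ependymal genes were mostly higher with 4b too. Ependymal cells line the ventricles with motile cilia and continue into the choroid plexus epithelium. Of 14 genes in that list 10 were on the arrays and 7 were tested; their median difference was 0.70, and 5 of 7 were higher at an unadjusted p under 0.05, against 2.95% of all genes. Rsph1, a radial spoke protein of cilia, had levels of 9.21, 9.85, 10.30 and 9.46 with 4b, against 9.10, 7.87, 8.12 and 8.51 with control treatment, a difference of 1.31 (adjusted p = 0.60 in limma). Its groups just failed to overlap, with control array 1 close to the lowest 4b array. Mia differed by 0.79. Both followed choroid plexus level in wild type (r of 0.91 for Rsph1 and 0.87 for Mia), and with that level in the fit the list median was 0.07. Of 15 meningeal genes tested, with a median of 0.14, 3 were higher at an unadjusted p under 0.05, among them Igfbp2, an insulin-like growth factor binding protein, at 1.32 (r of 0.98) and Mgp, matrix Gla protein, at 0.67 (r of 0.32). How far ependyma and meninges came with the choroid plexus was not tested.

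Ccdc3, which encodes a secreted coiled-coil protein, had the smallest p of all genes. Its levels were 10.87, 10.50, 10.84 and 11.10 on the 4b arrays, against 10.08, 9.89, 9.55 and 9.80 on the control arrays. The groups did not overlap. The difference of 1.00 ± 0.15 (SE; 95% interval 0.67 to 1.32) had an unadjusted p of 1.1e-05 and an adjusted p of 0.13 in limma; the adjusted p was 0.028 without control array 1 and ranged from 0.0062 to 1.0 over the alternatives. Wild-type levels were 11.06, 10.85, 11.35 and 11.36 with 4b, against 11.23, 10.93 and 10.90 with control treatment. Transgenic controls were below wild-type controls by 1.19 (adjusted p = 0.0046), while 4b-treated transgenic arrays lay 0.19 below them (adjusted p = 0.61; limma for both). These last comparisons share the wild-type control arrays, and the first shares the transgenic controls with the 4b difference. With choroid plexus level in the fit the Ccdc3 difference was 0.83 (unadjusted p = 0.0017, adjusted p = 1.0 in limma), and its r with that level in wild type was 0.53.

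Several other genes with an r of 0.8 or less with choroid plexus level were higher in their means with 4b, and all of those described next except Fcgr3 without overlap of the groups. Apoc1, an apolipoprotein of glia and macrophages, had levels of 9.84, 9.67, 9.52 and 9.69 with 4b, against 9.33, 8.78, 8.95 and 8.63 with control treatment, a difference of 0.75 ± 0.15 (adjusted p = 0.44 in limma). Control array 1 was the highest control for this gene, and without it the difference was 0.89 and the adjusted p 0.028. Apoc1 had an r of 0.76 with choroid plexus level, the highest of this set, and a difference of 0.49 with that level in the fit. Relt, a member of the tumour necrosis factor receptor family, had levels of 8.13, 7.89, 8.04 and 7.93 with 4b, against 7.50, 7.49, 7.41 and 7.72 with control treatment. Relt differed by 0.47 ± 0.10 and had an r of -0.04, but its other 2 probes, both dimmer, differed by 0.18 and -0.18. Sdhc, a subunit of succinate dehydrogenase, was among the brightest of these genes, with levels of 13.60, 13.60, 13.42 and 13.44 with 4b, against 13.13, 13.31, 13.06 and 13.09 with control treatment, a difference of 0.37 ± 0.09. The dimmer Sdhc probe, with a mean level of 6.5 at background, differed by -0.02. On their brightest probes Relt and Sdhc separated the groups completely. Glul, the glutamine synthetase of astrocytes and Bergmann glia, had levels of 9.65, 9.12, 9.54 and 9.41 with 4b, against 8.94, 8.90, 8.81 and 8.97 with control treatment, a difference of 0.53 ± 0.13. Hspb1, a small heat shock protein, differed by 0.57 ± 0.17 with no overlap, and Fcgr3, an Fc receptor of microglia, by 0.82 ± 0.23 with overlap of 1 pair of arrays. In wild-type cerebellum the 4b difference was 0.14 for Apoc1, -0.02 for Relt, 0.23 for Sdhc, 0.36 for Glul, -0.38 for Hspb1 and -0.02 for Fcgr3. None of these genes passed the adjusted test in either genotype. The microglial list was split in direction. Of the 17 genes tested, Fcgr3 among them, 9 had a positive and 8 a negative difference. Laptm5, a lysosomal membrane protein, was at -0.41 and the lowest at -1.44. Without control array 1 the list median was 0.18. In that fit 4 of the 17 were higher at an unadjusted p under 0.05 and 0 lower, against 7.63% and 7.54% of all genes.

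A list of acute-phase and activated vessel genes had a median difference of 0.42; 13 of 15 tested members had a positive difference, against 50.6% of all genes. At an unadjusted p under 0.05, 7 were higher, against 2.95% of all genes, and none passed after adjustment. Like the other gene lists, this one was written with earlier results of these data known, so its counts are a description. Vwf, the von Willebrand factor of endothelium, had levels of 10.49, 10.66, 10.59 and 10.80 with 4b, against 10.24, 9.75, 9.58 and 9.995 with control treatment. The groups did not overlap, and the difference was 0.74 ± 0.17 (adjusted p = 0.57 in limma). Lrg1, a secreted glycoprotein of activated endothelium, had levels of 10.05, 9.77, 11.08 and 10.29 with 4b, against 9.23, 9.75, 8.88 and 9.67 with control treatment. Its groups nearly met, at 9.77 with 4b against 9.75 with control, around a difference of 0.92 ± 0.25. Lcn2, the iron-binding acute-phase protein lipocalin 2, had levels of 9.06, 8.65, 11.23 and 9.56 with 4b, against 7.26, 8.33, 6.51 and 7.73 with control treatment, a difference of 2.17 ± 0.72 (unadjusted p = 0.0091, adjusted p = 0.88 in limma). The 4b array 3 was the highest for Lrg1 and Lcn2 and for the granulocyte gene S100a8, which had levels of 9.29, 9.33, 10.52 and 8.68 with 4b, against 8.64, 8.41, 6.88 and 7.63 with control treatment.

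The members named here had higher means with 4b elsewhere too, while the whole list had smaller medians there. The list median was 0.19 in wild-type cerebellum, 0.20 in transgenic striatum and 0.13 in transgenic cortex. In wild-type cerebellum, transgenic striatum and transgenic cortex, the 4b difference was 0.65, 0.60 and 0.53 for Vwf, 0.79, 0.76 and 0.82 for Lrg1, and 0.85, 1.94 and 1.88 for Lcn2. Tgm2, tissue transglutaminase, differed by 0.63 in transgenic cerebellum and by 0.49, 0.43 and 0.39 in the other 3 settings. The wild-type adjusted p in limma was 0.54 for Vwf and Lrg1, 0.55 for Tgm2 and 0.74 for Lcn2. Before adjustment the wild-type p in limma was 0.0029 for Vwf, 0.012 for Lrg1, 0.034 for Tgm2 and 0.3 for Lcn2. In striatum and cortex the unadjusted p in limma lay between 0.0027 and 0.047 for these 4 genes. The wild-type value of Lcn2 rests on an uneven control group, since wild-type control array 4 had a Lcn2 level of 11.17 and an S100a8 level of 14.10, far above the other wild-type controls. For the whole granulocyte list that array averaged 11.89, against 7.03 to 7.45 on the other wild-type controls. On the transgenic arrays the granulocyte list averaged 7.60, 7.65, 8.64 and 7.45 with 4b and 7.41, 7.36, 6.78 and 6.91 with control treatment. The part of blood cell content in these differences was not tested.

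**Figure D4:**
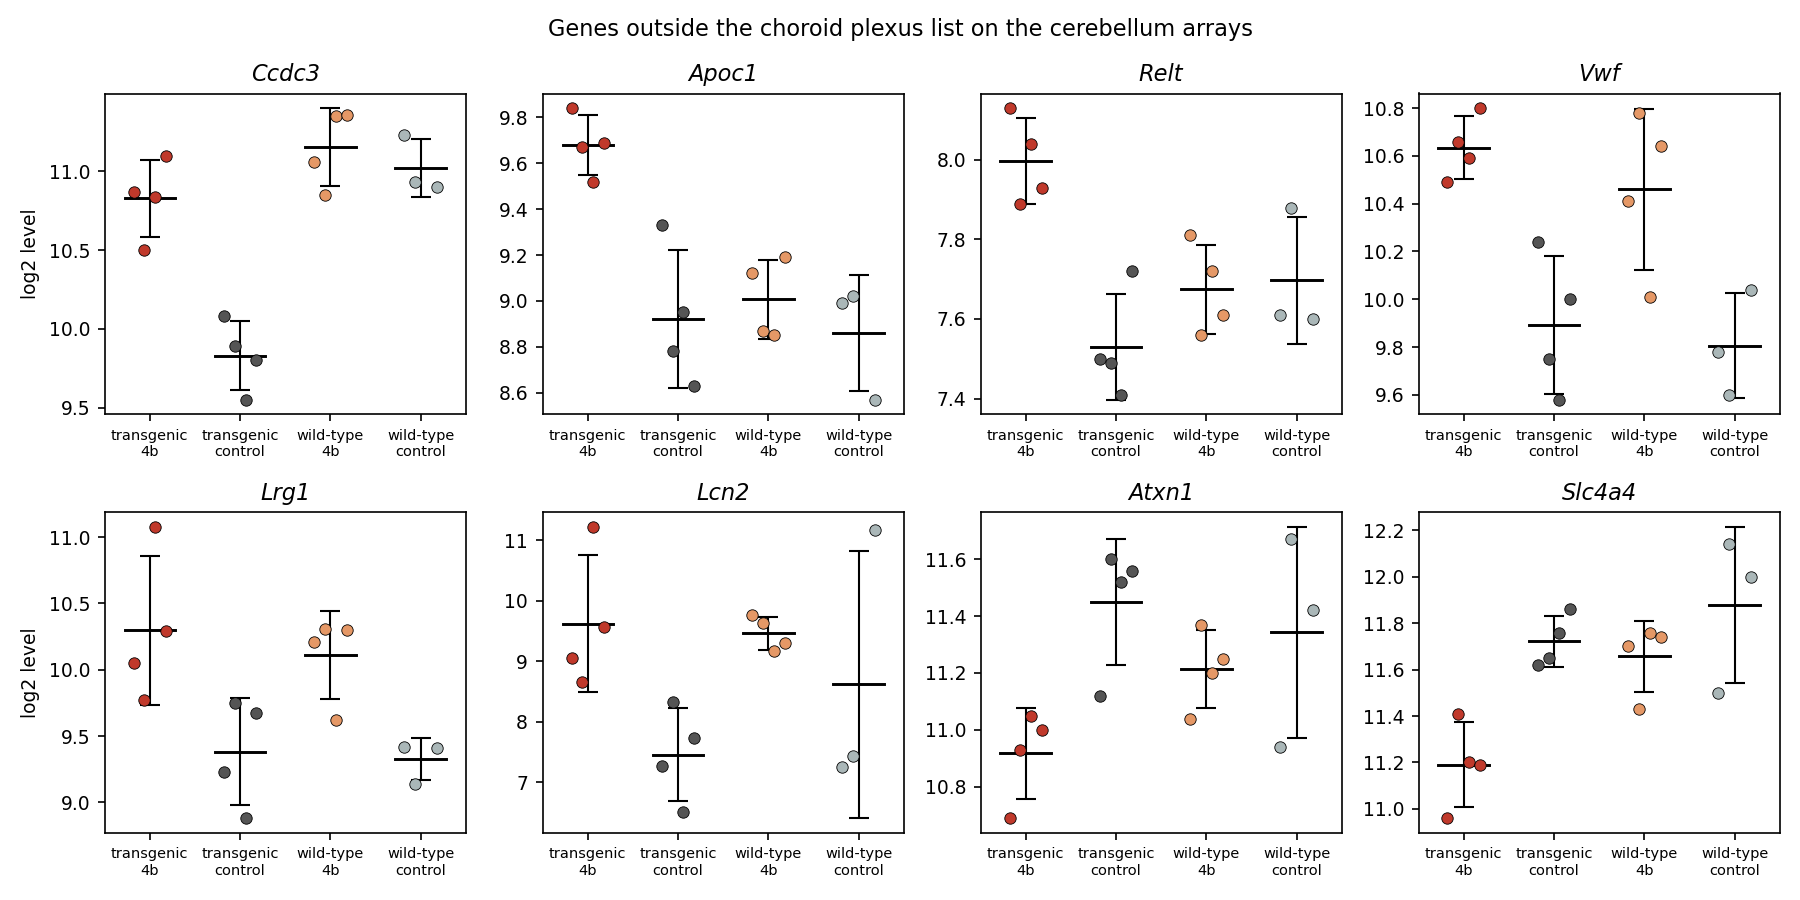
Log2 level (y axis, scaled per panel) of 8 genes outside the choroid plexus list on the 15 cerebellum arrays, by group; points are arrays, lines means and bars SD. Transgenic 4b arrays are apart from transgenic controls for all 8 genes; for Ccdc3 the transgenic controls (9.55 to 10.08) are below all other groups, and Vwf and Lrg1 have higher means with 4b in wild type as well.

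The genes with the smallest p among those lower with 4b differed by small amounts. The 12 so named differed by -0.31 to -0.54, none passed the adjusted test, and all had 4b arrays wholly below control arrays. Slc4a4, the sodium bicarbonate cotransporter of astrocytes, had levels of 10.96, 11.41, 11.20 and 11.19 with 4b, against 11.62, 11.65, 11.76 and 11.86 with control treatment, a difference of -0.53 ± 0.14 (adjusted p = 0.57 in limma). The dimmer Slc4a4 probes differed by -0.36 and -0.12. Atxn1, whose repeat expansion causes spinocerebellar ataxia type 1, had levels of 10.69, 10.93, 11.05 and 10.998 with 4b, against 11.12, 11.60, 11.52 and 11.56 with control treatment, a difference of -0.53 ± 0.15 (adjusted p = 0.65 in limma). Control array 1 was the nearest to the 4b arrays for Atxn1, and the other 3 controls were close together. Atp2b3, a plasma membrane calcium pump of neurons, had levels of 9.01, 9.13, 9.21 and 9.09 with 4b, against 9.41, 9.77, 9.67 and 9.74 with control treatment, a difference of -0.54 ± 0.14. Rgs7, a regulator of G-protein signalling, differed by -0.35, Ebf3, a neuronal transcription factor, by -0.45, Phf21a, a component of a histone demethylase complex, by -0.32, and Prkab2, a subunit of AMP-activated kinase, by -0.31. Zfp512 differed by -0.31, Heatr3 by -0.40 and Tmem184a by -0.31. The dimmer Heatr3 probes, with mean levels of 6.05 to 6.33 at background, differed by -0.08, -0.06 and 0.19. Olfr1502 and 1700065I16Rik differed by -0.47 and -0.37, but their 4b levels of 6.49 to 6.58 and 6.71 to 7.01 lay at or near background. None of the 12 had an r above 0.8 with choroid plexus level, and the 7 with a negative r ranged from -0.05 to -0.69.

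The main cell classes of the cerebellum had medians close to 0. The list medians were -0.06 for 18 Purkinje cell genes, -0.06 for 24 granule neuron genes, 0.02 for 10 inhibitory interneuron genes, 0.09 for 21 genes of astrocytes and Bergmann glia, -0.03 for 25 genes of oligodendrocytes and myelin, and 0.06 for 17 microglial genes. In the Purkinje and granule lists 0 genes had an unadjusted p under 0.05 in either direction. Without control array 1, 2 Purkinje and 3 granule genes were lower, in a fit where 7.54% of all genes were. Among interneuron genes Nos1, the neuronal nitric oxide synthase, had levels of 7.03, 7.05, 7.19 and 7.27 with 4b, against 7.37, 7.50, 7.38 and 7.42 with control treatment, a difference of -0.28 ± 0.10. The Nos1 groups did not overlap, but the gap was small. Mobp, a myelin protein, differed by 0.48 (unadjusted p = 0.037, adjusted p = 0.99 in limma) with overlapping groups.

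**Figure D5:**
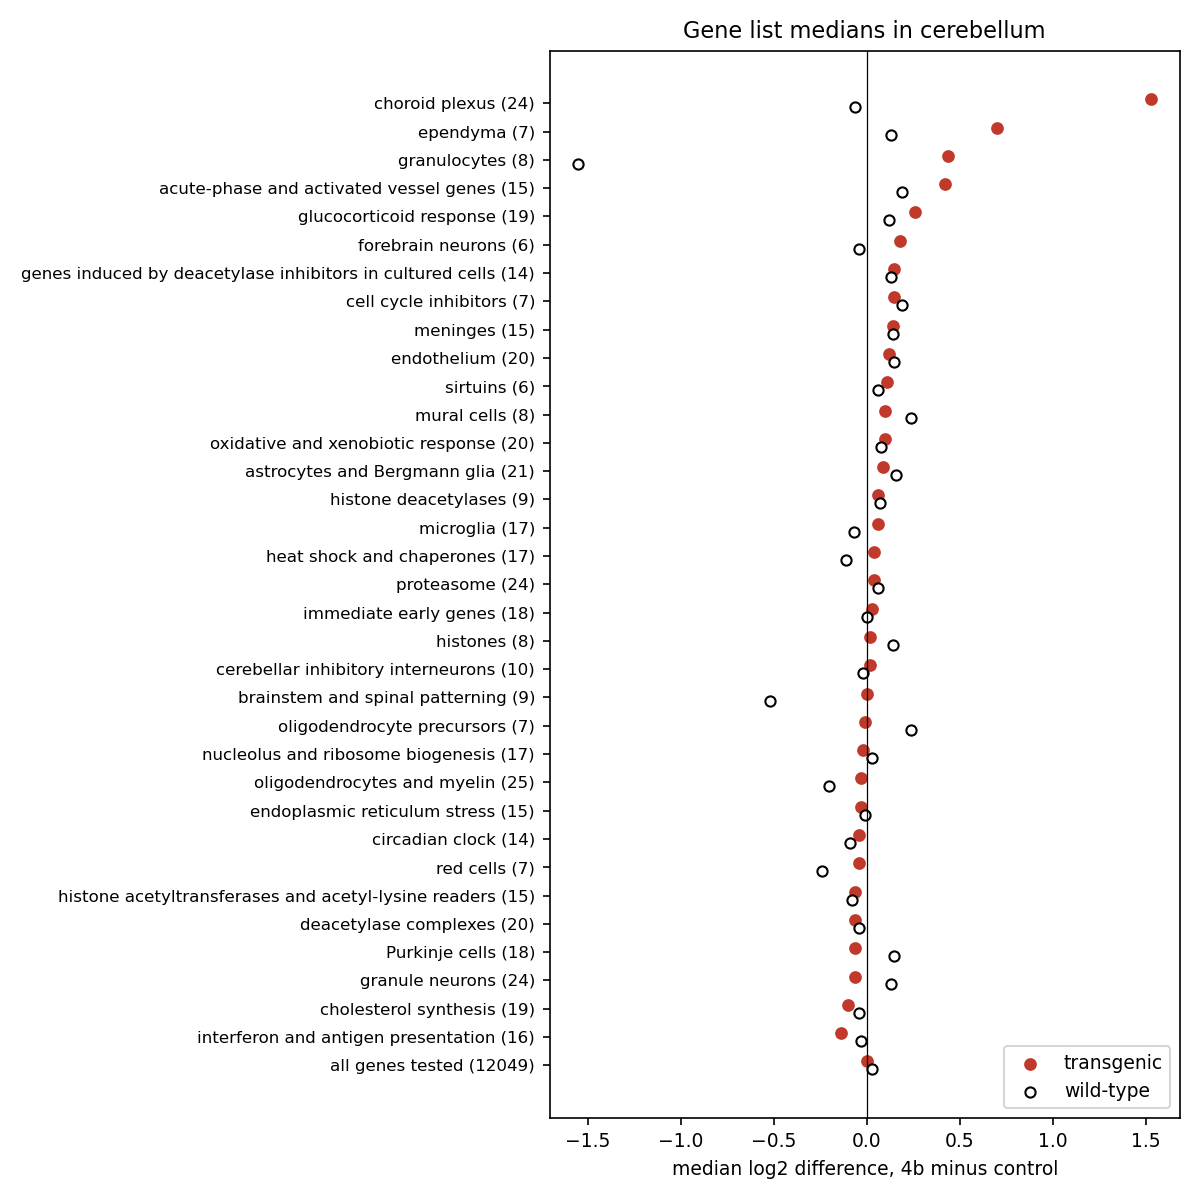
Median log2 difference, 4b minus control (x axis), of each gene list (number tested in brackets) in transgenic (filled) and wild-type cerebellum (open). The choroid plexus list stands at 1.53 in transgenic and -0.06 in wild type, and the Purkinje cell list at -0.06 in transgenic and 0.15 in wild type.

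Transcripts of the drug's targets differed by small amounts. Of 11 histone deacetylase genes 10 were on the arrays and 9 were tested; their differences ranged from -0.17 to 0.18 with a median of 0.06, and 0 had an unadjusted p under 0.05. Under scaling to a common median, Hdac1, Hdac4 and Hdac11 changed sign, at -0.052, -0.045 and -0.029. The list mean was 10.07 to 10.20 on the 4b arrays, against 10.33 on control array 1 and 9.99 to 10.05 on the other controls. Without control array 1 the list median was 0.15, against 0.02 over all genes, and 0 had an unadjusted p under 0.05. Hdac3, a main target of 4b, had levels of 11.98, 11.70, 11.99 and 11.97 with 4b, against 11.78, 11.85, 11.77 and 11.63 with control treatment. The groups overlapped, and the 95% interval of the difference ran from -0.05 to 0.36. Of 15 histone acetyltransferase and acetyl-lysine reader genes 1 was lower at an unadjusted p under 0.05, against 1.69% of all genes. This was the coactivator Ncoa2 at -0.54 ± 0.24, with overlapping groups. Without control array 1 the count was 3 lower, in a fit where 7.54% of all genes were. A list of 14 tested genes known to be induced by deacetylase inhibitors in cultured cells had a median of 0.15. Of these, 2 were higher at an unadjusted p under 0.05, against 2.95% of all genes. These were Tgm2, described above, and Cdkn1c, a cell cycle inhibitor, with levels of 11.55, 11.52, 11.86 and 11.43 with 4b, against 11.25, 10.53, 10.44 and 10.45 with control treatment. Cdkn1c followed choroid plexus level in wild type (r of 0.95), and control array 1 was far above the other controls. Cdkn1a, the p21 gene that deacetylase inhibitors induce in many cultured cells, had levels of 11.22, 10.01, 12.28 and 10.95 with 4b, against 9.77, 11.59, 9.72 and 10.61 with control treatment. The Cdkn1a groups overlapped around a difference of 0.69 ± 0.43. Cdkn1a belongs to the glucocorticoid response list too, whose mean level was 10.47, 9.76, 10.73 and 10.07 on the 4b arrays, against 9.68, 10.52, 9.54 and 10.03 on the controls. The order of arrays was the same for Cdkn1a as for that list within both groups. Cdkn1a is itself part of that mean, so the shared order is only a description. Of its 19 tested genes, 16 had higher means with 4b, against 50.6% of all genes. Of the 19, 1 was higher at an unadjusted p under 0.05, against 2.95% of all genes. This was the sulfotransferase gene Sult1a1 (difference 0.79 ± 0.28, groups overlapping).

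Stress and housekeeping lists were read against the 2.95% of all genes higher and 1.69% lower at an unadjusted p under 0.05. Of 20 genes of the oxidative and xenobiotic response (median 0.10) 3 were higher, among them Gclm, a subunit of the enzyme that limits glutathione synthesis, at 0.33, and the mitochondrial superoxide dismutase Sod2 at 0.25. Of 16 interferon and antigen presentation genes (median -0.14) 2 were lower, Ifit3 at -0.44 and Gbp3 at -0.37. Of 17 heat shock and chaperone genes (median 0.04) 1, Hspb1, was higher. Without control array 1 the counts were 3 higher and 2 lower, in a fit where 7.63% of all genes were higher and 7.54% lower. Of 24 proteasome genes (median 0.04) 1 was higher, the subunit Psma5 at 0.39, and of 17 nucleolar genes (median -0.02) 1, Nhp2, at 0.20. The count was 0 in either direction for 15 endoplasmic reticulum stress genes (median -0.03) and 14 circadian clock genes (median -0.04). Without control array 1, 2 clock genes were lower, in that fit with 7.54% of all genes lower. None of the genes in these lists passed the adjusted test.

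The genes that differ between the genotypes were followed under 4b. Over both treatments, 633 of the 12049 genes were called between transgenic and wild-type cerebellum in limma, 280 higher and 353 lower in transgenic mice; this contrast weighs both treatments equally but uses the same arrays. Among the 280 genes higher in transgenic mice, with a median genotype difference of 0.41, 129 had a negative and 151 a positive 4b difference, and the median 4b difference was 0.01. Among the 353 lower genes, with a median genotype difference of -0.51, 170 had a positive and 183 a negative 4b difference. At an unadjusted p under 0.05, 11 of the 280 were lower and 11 higher with 4b, and 17 of the 353 were higher and 8 lower. Over all genes, 2.95% were higher and 1.69% lower at that threshold. The share of positive 4b differences was 53.9% and 48.2% in these sets, against 50.6% over all genes. Only 1 of the 633 was in the choroid plexus list.

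None of the genotype genes named here passed the adjusted test for 4b. Plk5, a polo-like kinase family member of neurons, had one of the larger genotype differences, -1.52, and a 4b difference of 0.01. Hexim1, an inhibitor of transcription elongation, had a genotype difference of 0.89 and a 4b difference of 0.03. For Celf5 these were 0.69 and 0.11, for Fbl (fibrillarin) 0.61 and -0.07, for Cbx8, a Polycomb protein, 0.56 and -0.06, for Hdac1 0.40 and 0.05 and for Acss1, an enzyme that makes acetyl-CoA in mitochondria, -0.41 and 0.17. Several of these small 4b differences changed sign under other settings. Igfbp5, an insulin-like growth factor binding protein with a genotype difference of -1.79 over both treatments, had levels of 11.78, 11.73, 11.70 and 11.65 with 4b, against 11.95, 11.22, 11.69 and 11.25 with control treatment. The groups overlapped, and the 95% interval of the 4b difference was -0.16 to 0.53. Scn11a, a sodium channel gene higher in transgenic mice by 1.16, differed by -0.22 ± 0.11 with overlapping groups. Cdkn2b, a cell cycle inhibitor higher by 1.27, had levels of 8.78, 9.64, 9.72 and 9.44 with 4b, against 9.81, 9.90, 10.06 and 9.78 with control treatment. All 4b arrays were below all controls, with a difference of -0.49 ± 0.18 (unadjusted p = 0.016, adjusted p = 0.97 in limma), and wild-type Cdkn2b levels were 8.55, 8.89, 8.40 and 8.43 with 4b, against 7.90, 8.35 and 8.24 with control treatment. Htt, the mouse huntingtin gene, had levels of 8.64, 8.69, 8.83 and 8.64 with 4b, against 8.61, 8.62, 8.52 and 8.62 with control treatment. All 4b arrays were just above all controls. It had a 4b difference of 0.11 (95% interval -0.09 to 0.30).

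The difference between 4b differences was tested against the other groups. Wild-type cerebellum had 0 genes (0%) called for 4b, and 0 of 12049 genes (0%) were called for the transgenic minus wild-type difference, with 383 at an unadjusted p under 0.05. Against transgenic striatum, 0 of 11501 genes (0%) were called and 430 had an unadjusted p under 0.05. Against transgenic cortex, 1 of 11505 (0.00869%) was called, and 296 had an unadjusted p under 0.05. If no gene differed, 602.45, 575.05 and 575.25 genes would be expected under that threshold against wild type, striatum and cortex. The called gene was Clic6, with a 4b difference of 2.91 in cerebellum and -0.81 in cortex (adjusted p of the difference 0.041 in limma). The call was lost when any 4b array of either region, control cerebellum array 2, 3 or 4 or control cortex array 2 or 4 was left out. The choroid plexus list had a median 4b difference of -0.51 in striatum and -0.20 in cortex, opposite in sign to that in transgenic cerebellum. These medians cover fewer genes than in cerebellum, since members too dim in the other region were left out. The smallest unadjusted p of any member for 4b in those regions was 0.052 in limma, for Ttr in cortex.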

How the data were processed

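Per the labels' protocols, total RNA was biotin-labelled and measured on Illumina bead arrays; BeadStudio is named in the submitters' processing notes, with no version. The deposited table holds fluorescence intensity per probe, and a second deposited table holds log2 values that the authors made, which differ by at most 0.0115 from quantile-normalized log2 intensity. The intensities of 47 arrays were background-corrected (normexp, offset 50), log2-transformed and quantile-normalized (R 4.3.3, limma 3.58.1). One sample column matched no sample and was not used (1 unused column). Probes were named through the platform annotation (20984 of 24613 with 1 symbol), and the brightest probe stood for each gene. Genes above the 40th percentile of probes over the 15 cerebellum arrays, 12049, were tested with limma in 4 groups (two-sided; Benjamini-Hochberg, adjusted p under 0.05). Differences with striatum and cortex were tested over all 47 arrays. Named genes were the 12 smallest p-values in each direction, the leading members of each gene list, all choroid plexus genes and a fixed set. Members and lists were chosen with earlier results of these data known. The code was tested on simulated data. Alternatives covered background correction, scaling, filter, probes, weights, arrays in the fit, BeadChip, sex, choroid plexus level, replicate number and each array left out. Replicate numbers did not pair the arrays (correlations of deviations -0.002, 0.051, 0.105 and -0.028).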

Additional observations from a re-analysis of the deposited data

Results flagged for a closer look

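In 18 group values 1 array lay far from the other 3 by Dixon's test at the 95% level, among 324 groups of 4 examined (127 named genes and 35 gene lists in 2 groups each); chance flags about 1 in 20. Control array 1 accounted for 7 of these 18. Its levels were 9.66 for Igfbp2 against 9.43 to 9.46 on the other controls, 11.25 for Cdkn1c against 10.44 to 10.53, 11.12 for Atxn1 against 11.52 to 11.60, 11.77 for Sirt3 against 11.37 to 11.42, 9.39 for Trappc5 against 9.03 to 9.09, 12.41 for Hdac11 against 11.50 to 11.61, and a mean of 10.33 for the histone deacetylase list against 9.99 to 10.05. Otx2 was at 9.85 on control array 2, against 9.56 to 9.60 on the others. On control array 3, Steap1 was at 6.69, against 6.80 to 6.82, Htt at 8.52, against 8.61 to 8.62, and Cyp51 at 9.13, against 9.21 to 9.23. On 4b array 2, Heatr3 was at 7.09, against 7.04 to 7.05, and Hdac3 at 11.70, against 11.97 to 11.99. On 4b array 1, Phf21a was at 8.30, against 8.13 to 8.16, Gpr17 at 9.10, against 9.62 to 9.71, and the Y-linked gene Eif2s3y at 8.73, against 6.28 to 6.54; this is the 1 male array of the group. On 4b array 3, the granulocyte list averaged 8.64, against 7.45 to 7.65, and the cell cycle inhibitor list 9.93, against 9.60 to 9.65. Clic6 was the 1 gene whose 4b difference was called between regions, by 3.72 in transgenic cerebellum minus transgenic cortex.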

How the results depend on the processing

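Of 4165 values of 127 named genes over 50 settings, 4082 kept their direction. With choroid plexus level in the fit, which choroid plexus genes themselves make up, differences turned to -1.28 for Ttr, -0.53 for Msx1, -0.27 for Otx2, -0.25 for Trpv4, -0.15 for Steap1, -0.12 for Kcne2, -0.080 for Ecrg4, -0.077 for F5, -0.069 for Tmem72, -0.062 for Ace, -0.057 for Cldn2 and -0.033 for Rdh5, and also to -0.44 for Cdkn1c, -0.41 for Igfbp2, -0.028 for Htt, -0.008 for Hdac3, -0.136 for Hspb8, 0.125 for Rgs7bp, 0.012 for Rora, -0.019 for Myh11, 0.147 for Per3, 0.040 for Kdm5c, 0.084 for Eif2s3y, 0.069 for Trappc5, 0.015 for Cbx8, -0.803 for Hoxb2, 0.180 for Hbb-bt, -0.151 for Hdac1 and -0.261 for Hdac11. With BeadChip as a fixed block over the cerebellum arrays, Kcne2 was at -0.037, Psma5 -0.064, Acss1 -0.060, Acta2 -0.137, Ddit3 0.005, Macroh2a1 0.092, Eif2s3y 0.154, Trappc5 0.011, Fbl 0.094, Cbx8 0.171, Hdac10 0.025 and Plk5 -0.107, and over all 47 arrays Fbl was at 0.014 and Cbx8 at 0.002. Within the shared BeadChip, Kcne2 was at -0.161, Ifit3 0.067, Acss1 -0.078, Ntn4 -0.368, Acta2 -0.264, Ddit3 0.150, Eif2s3y 2.395, Trappc5 0.068, Fbl 0.065, Cbx8 0.303, Hdac10 0.079 and Plk5 -0.063. Array weights gave Hexim1 -0.043 and Plk5 -0.020, female arrays alone Hdac7 0.023, Hba-a1 0.064 and Hdac10 0.023, and median scaling Hdac1 -0.052, Hdac11 -0.029, Hdac4 -0.045, Hexim1 -0.048 and Plk5 -0.083. Leaving out 1 array changed the sign of 12 named genes, with ranges of -0.128 to 0.012 for Cbx8, -0.201 to 0.006 for Gpr17, -0.314 to 0.010 for Hba-a1, -0.023 to 0.087 for Hdac1, -0.091 to 0.015 for Hdac10, -0.029 to 0.273 for Hdac11, -0.144 to 0.155 for Hdac2, -0.058 to 0.291 for Hdac4, -0.288 to 0.042 for Hdac7, -0.053 to 0.123 for Hexim1, -0.047 to 0.073 for Plk5 and -0.101 to 0.019 for Trappc5. The 0 genes called became 2 with array weights, 38 with the transgenic arrays alone, 29 with all 47 arrays in 1 fit and 2 with BeadChip as a block over all 47, and 0 to 35 when 1 array was left out, the 35 without control array 1. The 560 genes at an unadjusted p under 0.05 became 913 without the filter, 364 with the stricter one, 2536 with weights, 932 with all 47 arrays, 892 with BeadChip over all 47 and 1414 on female arrays alone, and 408 to 1828 when 1 array was left out, the 1828 without control array 1. The 0 genes called between genotypes' 4b differences became 9 on female arrays. Against striatum, 0 became 1 with median scaling, 32 with weights, 23 with the compared groups alone and 0 to 1 when 1 array was left out, the 1 without transgenic 4b striatum array 1. Against cortex, the 1 gene became 0 with the stricter filter, 4 with weights, 26 with the compared groups alone, 0 with BeadChip over all 47, 0 with choroid plexus level and 0 to 1 when 1 array was left out. The cause of these changes was not tested. With the replicate number as a block, which the labels' numbers do not bear out as a pairing, 0 genes were called for 4b and 0 against cortex. The median 4b difference of genotype genes, 0.001, was -0.075 with median scaling, under which the median over all genes was -0.053. The choroid plexus median lay between 1.21 and 2.54 in all settings without its own covariate and at 0.01 with it. Leaving out wild-type arrays was added after seeing the data. Signal limits dim genes: levels near 6.29 are background.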

Other observations

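Leaving out transgenic control array 1 gave 35 calls at an adjusted p under 0.05 in limma, 2 higher (Ccdc3 and Apoc1) and 33 lower with 4b (0.274% of genes tested), of which 11 probes have no gene name. These 33 were chosen by that fit, so their values in transgenic cerebellum are a description. Their mean level was 8.91, 9.07, 8.92 and 8.97 on the 4b arrays, against 8.13 on control array 1 and 9.75, 9.59 and 9.67 on control arrays 2 to 4. All 33 were lower on control array 1 than on any other control, and 32 were lower there than on any 4b array. On the wild-type arrays, which that choice did not compare, the mean level was 8.92, 8.88, 8.90 and 8.68 with 4b, against 9.39, 9.42 and 9.52 with control treatment. There all 33 had a negative 4b difference, against 42.9% of all genes, with a median of -0.58 against 0.03 over all genes. In transgenic striatum 28 of 33 were negative, against 49.6% of all genes (median -0.10 against 0.00), and in transgenic cortex 25 of 33, against 49.2% (median -0.07 against 0.00). The wild-type fit shares its error estimate with the transgenic one, and the part of RNA quality or array handling in these levels was not tested.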
